A study of Homo sapiens with 12 samples.

Results

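Tumours treated with a p38 inhibitor alone were compared with tumours given vehicle alone, gene by gene. Every tumour was a xenograft of the human line MDA-MB-231, which derives from a triple-negative breast cancer, placed in a mammary fat pad of a mouse, and RNA-seq reads were counted per human gene symbol. The p38i group received 1 mg/kg/day of SB202190, which blocks p38 MAP kinases. The control group received the vehicle, 4% DMSO, 30% PEG 300 and 5% Tween 80. Injections were intraperitoneal on 5 days a week once tumours had reached 100 mm3. A further pair of groups entered the same model and is compared further on: EZH2i received the EZH2 inhibitor EPZ-6438 (also spelled EPZ-6428 in the labels) at 10 mg/kg/day, and combination received both compounds, whose doses the labels do not repeat. The comparison sets 3 p38i against 3 control libraries, within a model of all 12 libraries that share 1 estimate of the spread, over the 12514 of 25369 gene symbols that had enough counts to test. Of these, 221 genes passed an adjusted p of 0.05, 82 higher and 139 lower in p38i tumours. Every tumour comes from the same cell line, the host strain and the length of treatment are not given in the sources used here, and handling of mouse reads is not stated.

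Libraries are named by group and tumour number. Only p38i 3-3 could be joined to a single p38i sample: the labels give column 5 of the count table to the p38i tumours 3-4 and 4-2 alike and column 6 to no sample. Column 5 is therefore a p38i library of one of these tumours (p38i col5), and column 6 was taken as the remaining p38i library by elimination (p38i col6). Values of a gene in 3 libraries are given in the order p38i 3-3, col5 and col6, and control 1-1, 1-3 and 2-1. They are CPM, counts relative to the scaled library size, and CPM is not divided by transcript length, so levels of different genes are not set against each other.

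The p38 MAP kinases are switched on by stress and inflammatory cytokines through the kinases MAP2K3 and MAP2K6. They phosphorylate transcription factors and further kinases such as MAPKAPK2, which stabilises short-lived cytokine transcripts by way of AU-rich elements. SB202190 occupies the ATP site of p38 alpha and p38 beta, so it acts on proteins, and the transcripts of its targets do not check the treatment. The series title links p38 signalling to EZH2, the catalytic subunit of the histone methyltransferase PRC2.

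Library totals ran from 2956275 to 4104159 counts in p38i tumours and from 2484579 to 4360021 in control tumours. The cell line label was checked on 12 genes known from MDA-MB-231 cells, such as VIM, CD44 and AXL. All were tested, 1 passed (CAV2, a caveolin, lower with an edgeR adjusted p of 0.0493), and together they made up 1.05% to 1.09% of counts in p38i tumours, against 0.952% to 1.13% in control tumours. A second list held 8 genes thought to be low or absent in the line. Of these, the hormone receptor genes ESR1 and PGR, low in triple-negative cells, stayed at 7 to 32 counts per library. FOXA1, ERBB3 and TFF1 held 0 to 40 counts. The others were not uniformly low: EPCAM held 117 to 242 counts, GATA3 71 to 174 and CDH1 2 to 133. Markers of neutrophils, endothelium and macrophages made up at most 0.00471% of counts in any of the 6 libraries, with S100A8, S100A9 and CSF3R at 0 counts in all of them. None of the tested markers of macrophages (4), endothelium (4), pericytes and smooth muscle (5), erythroid cells (1), adipocytes (1) or keratinocytes (2) passed in edgeR, DESeq2 or limma-voom, and 1, the endothelial ERG, had an unadjusted edgeR p under 0.05. Skeletal muscle markers set 1 library apart: their 12 symbols took 0.160% of counts in p38i col6 (95% Wilson interval 0.156% to 0.164%, counting error only), against 0.00697% to 0.0123% in the other p38i tumours and 0.00658% to 0.0150% in control tumours. The 4 muscle markers tested had an unadjusted edgeR p under 0.05 and none passed in edgeR, DESeq2 or limma-voom. Without col6, 2 genes passed in the comparison. MAPK14, which encodes p38 alpha, averaged 129.6 ± 9.6 CPM in p38i tumours and 94.6 ± 1.68 CPM in control tumours, and EZH2 averaged 171 ± 42.8 CPM in p38i tumours and 128 ± 27.3 CPM in control tumours (SD, n = 3 each). Neither passed, with edgeR adjusted p values of 0.185 and 0.283.

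The genes that passed made up 1.77% of those tested in edgeR's quasi-likelihood test with Benjamini-Hochberg adjustment. The genes higher in p38i tumours were 0.655% of all tested and the genes lower were 1.11%. Calls within the gene lists below are to be read beside these shares. Of all 12514 genes, 2300 had an unadjusted edgeR p under 0.05, DESeq2 called 632 and limma-voom 165. With 1 of the 6 p38i and control libraries left out, 1576 of 12764 (without control 1-1) to 2832 of 12852 genes (without control 2-1) had an unadjusted p under 0.05. Member counts of these kinds are to be read beside these numbers. All lists were chosen with earlier results of these data known, so their counts and medians describe the members and do not test a class of genes. The median log2 fold change was 0.98 among the 82 genes edgeR called higher and -1.31 among the 139 it called lower, beside -0.00099 over all genes. Of the 221, 135 differed by at least 1 on the log2 scale. In all 221 the 3 p38i libraries lay wholly above or wholly below the 3 control libraries. Such separation was common: 24.8% of all tested genes showed it, 12.3% with p38i above and 12.5% with p38i below. Where separation is noted below for a called gene, it repeats this count and is not further support. The plot of change against level places the called genes among all genes.

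**Figure D1:**
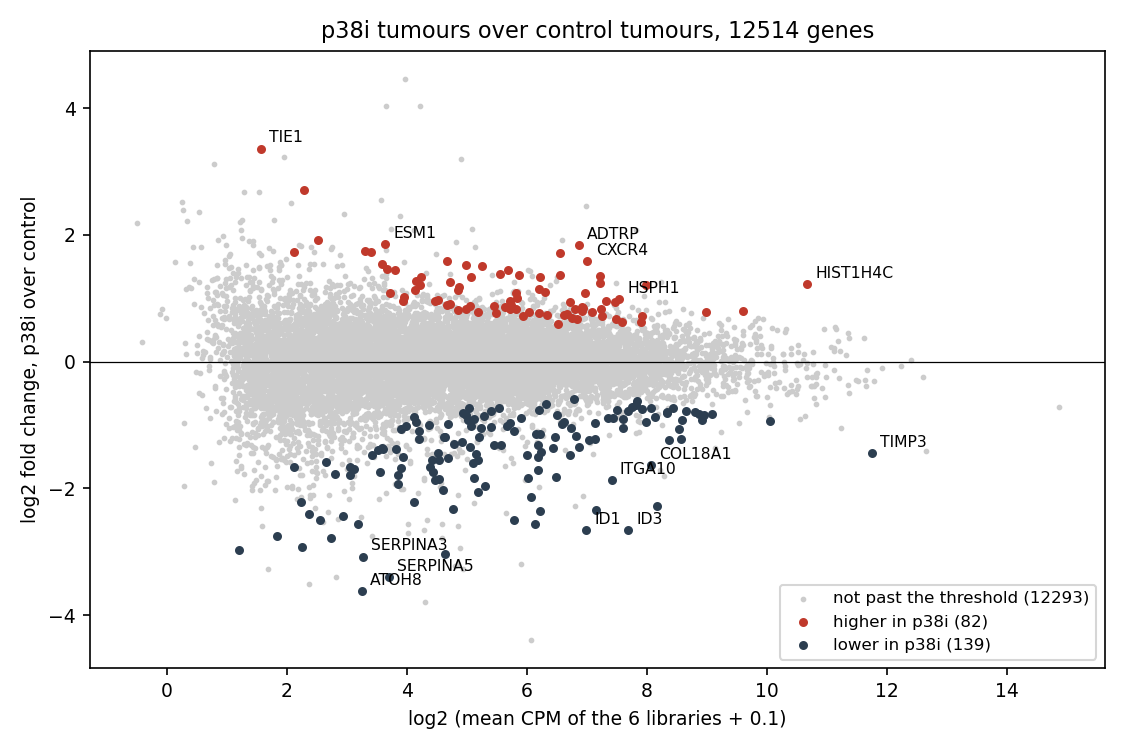
Each point is 1 of 12514 genes, with the mean level of the 6 libraries on a log2 axis and the log2 fold change of p38i over control tumours on the vertical axis. The 82 genes higher and 139 genes lower past the adjusted p of 0.05 are coloured, and they occur at low and high levels.

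The count rested on the individual tumours. With p38i 3-3 left out it was 2, with col5 left out 7 and with col6 left out 2. Without control 1-3 it was 3 and without control 1-1 it was 32, but without control 2-1 it was 568. Leaving out combination libraries gave 87 (without combination 9-1), 143 (without combination 8-1) and 122 (without combination 9-2). Leaving out EZH2i libraries gave 446 (without EZH2i 5-4), 236 (without EZH2i 5-3) and 191 (without EZH2i 6-1). ITGA10 passed in all 12 of these fits, FAM155A in 10, and CLEC2D, COL18A1, HSPH1, METTL7A, SCN9A and SERPINA3 in 9. DESeq2 called 280 genes higher and 352 lower, and limma-voom called 165 in all. With library totals alone as the scaling, 102 genes were higher and 102 lower, while DESeq2 size factors in edgeR gave 81 higher and 141 lower. Labels do not say whether tumours were processed together, so a processing difference between the groups could not be told apart from treatment. The edgeR p-values set the group difference against the spread between tumours, estimated over all 12 libraries.

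**Figure D2:**
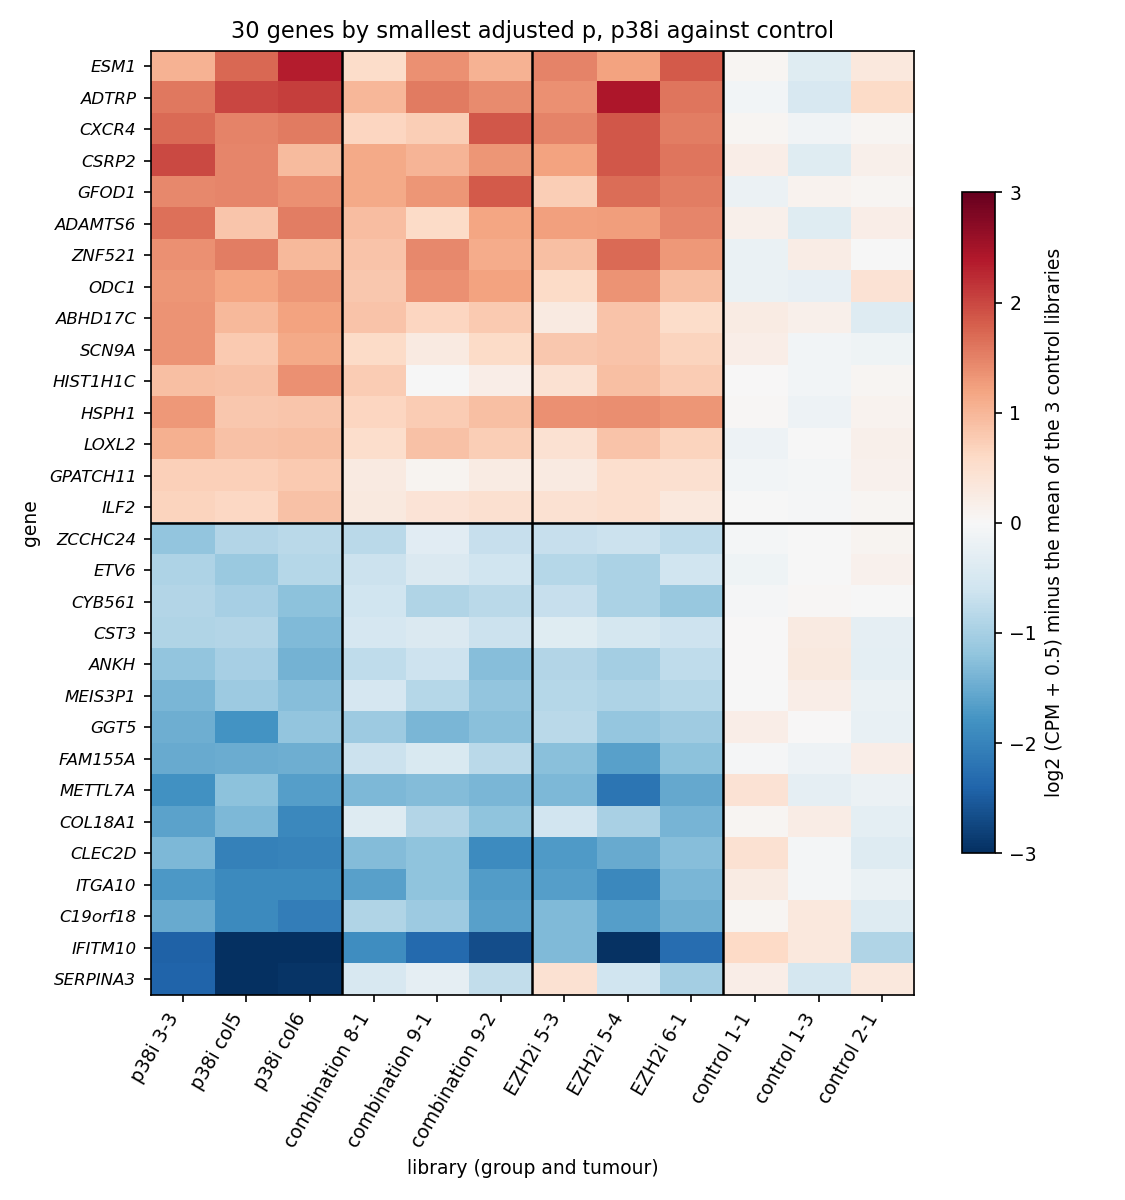
Colours give log2 (CPM + 0.5) of 30 genes in 12 libraries, minus the mean of the 3 control libraries. They are the 15 genes in each direction with the smallest adjusted p, a mean of at least 5 CPM and no overlap of p38i and control libraries. The 3 p38i columns differ from the 3 control columns in all 30 rows by this choice. The combination and EZH2i columns are drawn against the same control tumours.

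The lower genes included 2 integrin subunits, receptors that anchor cells to the matrix, and 3 matrix proteins. ITGA10, a collagen-binding integrin subunit, had 79.4, 69.8 and 70.0 CPM in p38i tumours, against 314, 256 and 231 CPM in control tumours. Its p38i values lay close together and all were below the lowest control (log2 fold change -1.87, SE 0.19, edgeR adjusted p = 0.000689), the smallest adjusted p of the comparison. ITGA1, another collagen-binding subunit, had 24.2, 38.1 and 23 CPM in p38i tumours, against 155, 86.5 and 64 CPM in control tumours and was also lower (log2 fold change -1.83, SE 0.38, edgeR adjusted p = 0.0379). In bulk tumours, fewer cells of a type and less RNA per cell cannot be told apart. These were 2 of 15 integrin subunits tested, the other 13 did not pass, and the median of the list was -0.03, beside -0.00099 for all genes. ITGB1, the common beta partner of both, had 636, 602 and 724 CPM in p38i tumours, against 555, 506 and 498 CPM in control tumours and did not pass (adjusted p in edgeR 0.251).

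COL18A1, the collagen XVIII chain from which endostatin is cut, had 132, 158 and 104 CPM in p38i tumours, against 419.6, 471 and 324 CPM in control tumours. All p38i values were below all control values (log2 fold change -1.63, SE 0.25, edgeR adjusted p = 0.0156). PAPLN, the matrix protein papilin, had 3.07, 2.21 and 2.45 CPM in p38i tumours, against 29.1, 12.3 and 5.21 CPM in control tumours (log2 fold change -2.56, SE 0.60, edgeR adjusted p = 0.0478). Its control tumours spread more widely than its p38i tumours. SNED1, a matrix glycoprotein, had 15.3, 25.4 and 9.05 CPM in p38i tumours, against 167, 65.7 and 48.8 CPM in control tumours (log2 fold change -2.49, SE 0.55, edgeR adjusted p = 0.0493). In both genes control 1-1 was far above the other controls. These were the 3 lower genes among 31 collagens and matrix proteins, with none higher, 20 with a negative log2 fold change and a median of -0.30. Without control 1-1 the median was -0.02, and 16 of the 31 were negative. DESeq2 called 7 of the list lower and limma-voom 2. FN1, fibronectin, had 4408, 3802 and 2311 CPM in p38i tumours, against 14358, 8982 and 4639 CPM in control tumours and did not pass (log2 fold change -1.41, edgeR adjusted p = 0.0656). Of 10 fibroblast markers, 8 were tested, and PDGFRB, a growth factor receptor, was the one past the threshold (edgeR adjusted p = 0.0433), with 25, 46 and 29 counts in p38i tumours, against 162, 117 and 64 counts in control tumours. The summed fibroblast markers took 0.0289% to 0.0929% of counts in p38i tumours, against 0.0445% to 0.0983% in control tumours, and the fibroblast gene DCN had at most 1 count in each. Their part in the matrix genes was not tested.

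Of 24 genes for serpins, coagulation and fibrinolysis, SERPINA3 and SERPINA5 were lower and ADTRP was higher. Of 21 matrix proteases and TIMPs, TIMP3 was lower and ADAMTS6 higher. SERPINA3, alpha-1-antichymotrypsin, had 2.73, 1.66 and 1.71 CPM in p38i tumours, against 19.1, 11.4 and 20.6 CPM in control tumours. The groups were far apart (log2 fold change -3.07, SE 0.43, edgeR adjusted p = 0.0142), though its p38i libraries held only 6 to 8 counts each. SERPINA5, the protein C inhibitor, had 1.02, 3.04 and 2.45 CPM in p38i tumours, against 23.7, 15.3 and 32 CPM in control tumours (log2 fold change -3.40, SE 0.62, edgeR adjusted p = 0.0239). Its p38i libraries were likewise near the lower limit of counting. CST3, cystatin C, an inhibitor of cysteine proteases, had 137, 140.5 and 102 CPM in p38i tumours, against 257, 312 and 212 CPM in control tumours (log2 fold change -1.04, SE 0.17, edgeR adjusted p = 0.0164). TIMP3, a matrix-bound inhibitor of metalloproteinases, had 1356, 2177 and 2007 CPM in p38i tumours, against 3566, 6216 and 5297 CPM in control tumours. The highest p38i library stood below the lowest control library (log2 fold change -1.44, SE 0.29, edgeR adjusted p = 0.0331). TIMP2 had 767, 722 and 668 CPM in p38i tumours, against 1193, 853 and 792 CPM in control tumours and did not pass (edgeR adjusted p = 0.242).

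Of 10 tested genes that respond to bone morphogenetic proteins (BMPs), 5 were lower in p38i tumours. BMP ligands bind paired receptor kinases that phosphorylate SMAD1, SMAD5 and SMAD9, which enter the nucleus with SMAD4 and switch on the ID genes and, as feedback, SMAD6. All 10 target genes had a negative log2 fold change, with a median of -1.38 beside -0.00099 for all genes. In 7 of the 10 the p38i libraries lay wholly below the control libraries, against 12.5% of all genes. The list was chosen with earlier results of these data known. Promoter windows for the 5 called genes, 250 bases before to 50 bases after the RefSeq start, were searched on both strands for GTCTAGAC, 2 SMAD-binding boxes facing each other, and for GGCGCC, the core of the GC-rich BMP element. Both read the same on either strand and do not overlap each other. SMAD6 held the only match, 1 copy of GTCTAGAC just before its start site, and is shown because of it. Over the annotation, 0.202% of 35114 RefSeq windows hold GTCTAGAC and 19.2% hold GGCGCC. The other 4 windows (ID1, ID3, SMAD9 and ATOH8) held neither. The window of SMAD6, chr15:66701986-66702285 on the plus strand of GRCh38.p14, reads 5′ to 3′ as follows, with the match in capitals.
SMAD6: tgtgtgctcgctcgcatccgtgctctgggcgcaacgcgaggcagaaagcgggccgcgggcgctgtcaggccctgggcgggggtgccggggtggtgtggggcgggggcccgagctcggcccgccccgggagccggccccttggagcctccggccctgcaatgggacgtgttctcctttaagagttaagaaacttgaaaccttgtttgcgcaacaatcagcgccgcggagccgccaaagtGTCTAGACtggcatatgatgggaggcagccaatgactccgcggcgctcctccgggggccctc

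ID1, an inhibitor of basic helix-loop-helix transcription factors, had 30.3, 30.6 and 43.3 CPM in p38i tumours, against 181, 207 and 272 CPM in control tumours. The groups lay far apart, with col6 highest among p38i tumours (log2 fold change -2.66, SE 0.47, edgeR adjusted p = 0.0297). ID3, of the same family, had 40.9, 84.7 and 42.6 CPM in p38i tumours, against 479, 326 and 259.5 CPM in control tumours (log2 fold change -2.66, SE 0.52, edgeR adjusted p = 0.039), with col5 highest in its group and control 1-1 highest among controls. SMAD6, which blocks BMP receptor signalling, had 7.16, 8.0 and 8.07 CPM in p38i tumours, against 20.4, 23.4 and 16.8 CPM in control tumours. Both groups were tight and did not overlap (log2 fold change -1.37, SE 0.24, edgeR adjusted p = 0.0164). SMAD9, a BMP-activated SMAD, had 7.84, 5.24 and 5.87 CPM in p38i tumours, against 17.9, 21.6 and 10.2 CPM in control tumours, where control 2-1 came close to p38i 3-3 (log2 fold change -1.39, SE 0.33, edgeR adjusted p = 0.0493). ATOH8, a helix-loop-helix factor, had 0, 2.76 and 1.22 CPM in p38i tumours, against 17.1, 22.8 and 12.6 CPM in control tumours, from 0, 10 and 5 counts in p38i tumours and 41, 76 and 53 counts in control tumours (fitted log2 fold change -3.62, SE 0.71, edgeR adjusted p = 0.031). ID2 was separated too, with 11.2, 14.1 and 9.79 CPM in p38i tumours, against 29.6, 24.6 and 27.7 CPM in control tumours, but did not pass (edgeR adjusted p = 0.0569). HEY1 and ID4 overlapped between the groups (-1.53 and -0.68 on the log2 scale), and SMAD7, the inhibitory SMAD shared with TGF-beta signalling, lay between 30.3 and 34.1 CPM in p38i tumours and between 25.2 and 47.9 CPM in control tumours. BAMBI, a decoy receptor, was at 3.41 to 4.65 CPM in p38i tumours and 4.74 to 5.4 CPM in control tumours (edgeR adjusted p = 0.657). Without control 2-1, 5 of 11 BMP targets then tested passed in edgeR. Without p38i 3-3, col5, col6, control 1-1 or control 1-3, 0 of 11 passed, with 6 or 7 at an unadjusted p under 0.05. The median lay between -1.35 and -1.20 in all 6 fits. DESeq2 called 6 of them lower and limma-voom 4.

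**Figure D3:**
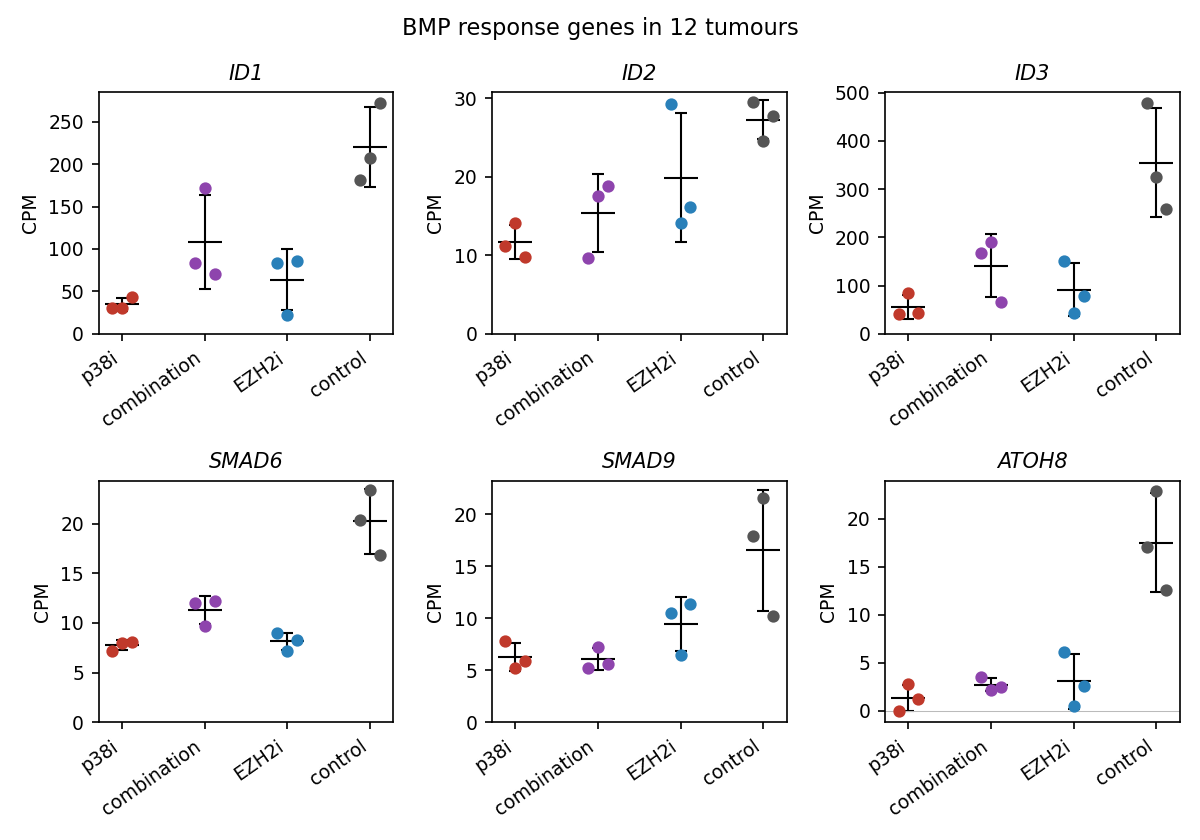
Points are CPM in single tumours of the p38i, combination, EZH2i and control groups for 6 BMP response genes, with the mean and SD of 3 tumours as a bar. In each panel the 3 p38i tumours are below the 3 control tumours, which follows from the choice of genes. The 6 are among the 7 of 10 tested BMP targets without overlap of p38i and control libraries. HEY1, ID4 and SMAD7 overlapped and are not drawn.

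SMAD9 acts upstream of the ID genes as well as being listed as a target. None of 12 tested genes on a list of BMP ligands, secreted inhibitors and related genes such as BMP1 was called by edgeR, DESeq2 or limma-voom. Of the 12, 2 had an unadjusted edgeR p under 0.05. BMP4, a ligand, had 301, 196 and 377 CPM in p38i tumours, against 573, 312 and 261 CPM in control tumours, with overlap (edgeR adjusted p = 0.667). NOG, which encodes the BMP antagonist noggin, had 202, 84.4 and 94.4 CPM in p38i tumours, against 64.5, 51.9 and 41.7 CPM in control tumours, with all p38i libraries above the controls (log2 fold change 1.27, SE 0.48, edgeR adjusted p = 0.186). FST, follistatin, had 41.6, 31.5 and 47.5 CPM in p38i tumours, against 29.1, 25.8 and 25.8 CPM in control tumours, likewise separated (edgeR adjusted p = 0.213). BMP2 (log2 fold change -0.30), INHBA (-1.33), INHBB (-0.65), GDF15 (-0.74), BMP1 (-0.32), FSTL1 (0.29), FSTL3 (-0.91), TWSG1 (0.32) and CHRDL1 (0.37) all overlapped between the groups. Among 14 receptors, SMADs and regulators, edgeR and limma-voom called none and DESeq2 called 1, and 2 had an unadjusted edgeR p under 0.05. SMURF2, a ubiquitin ligase that turns over receptors and SMADs, had 546, 592 and 577 CPM in p38i tumours, against 900.4, 808 and 666 CPM in control tumours (log2 fold change -0.47, edgeR adjusted p = 0.102). SMAD5 had 281, 283 and 270.1 CPM in p38i tumours, against 290.1, 296 and 293 CPM in control tumours, a narrow separation (log2 fold change -0.08). SMAD1 overlapped (0.12), SMAD4 did not (0.48), and the receptors BMPR1A, BMPR2, ACVR1, ACVR1B, ACVR2A and ACVR2B lay between -0.50 and 0.26 with overlap. BMPR1B (-1.24), RGMA (1.13), RGMB (0.40) and SMURF1 (-0.07) overlapped as well.

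Of 14 tested glucocorticoid-responsive genes, 4 were lower and none higher, beside 1.11% of all genes lower. This list, too, was chosen with earlier results of these data known. The glucocorticoid receptor is a nuclear hormone receptor whose direct targets include FKBP5, a cochaperone that dampens the receptor. FKBP5 had 20.5, 39.2 and 58.2 CPM in p38i tumours, against 193, 142 and 84.6 CPM in control tumours. Control 2-1 came nearest to the p38i tumours (log2 fold change -1.81, SE 0.36, edgeR adjusted p = 0.0331). KLF9, a zinc finger transcription factor, had 70.2, 52.4 and 44 CPM in p38i tumours, against 182, 179.8 and 101 CPM in control tumours (log2 fold change -1.48, SE 0.33, edgeR adjusted p = 0.0461). SCNN1A, the alpha subunit of the epithelial sodium channel, had 51.8, 57.1 and 31.8 CPM in p38i tumours, against 283, 279 and 152 CPM in control tumours, where every control lay far above every p38i tumour (log2 fold change -2.34, SE 0.43, edgeR adjusted p = 0.031). ANGPTL4, a secreted inhibitor of lipoprotein lipase that hypoxia and lipids also induce, had 77, 69 and 53.3 CPM in p38i tumours, against 95.7, 243 and 165 CPM in control tumours (log2 fold change -1.34, SE 0.30, edgeR adjusted p = 0.0433). Of the list, 10 had negative log2 fold changes, with a median of -0.47. In 7 the p38i libraries lay wholly below the controls and in 1 wholly above, against 12.5% and 12.3% of all genes. DESeq2 called 5 of them lower and limma-voom 4. Without control 2-1, 5 members passed in edgeR, and without control 1-1, 1 passed. Without control 1-3, p38i 3-3, col5 or col6, 0 passed, with 6 or 7 lower members at an unadjusted p under 0.05. ANGPTL4 was also the single call among 23 hypoxia and glycolysis genes, whose median was 0.10.

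Other genes among the 15 lower ones with the smallest adjusted p have varied known roles. CLEC2D, the ligand of the natural killer cell receptor KLRB1, had 20.1, 12.4 and 12.7 CPM in p38i tumours, against 72.4, 49.8 and 39.6 CPM in control tumours (log2 fold change -1.84, SE 0.27, edgeR adjusted p = 0.0156). FAM155A, an auxiliary subunit of the sodium leak channel NALCN, had 13, 13.2 and 13.5 CPM in p38i tumours, against 36.6, 33.9 and 43.4 CPM in control tumours. Its p38i tumours were almost identical and far below the controls (log2 fold change -1.52, SE 0.20, edgeR adjusted p = 0.00917). METTL7A, a methyltransferase-like protein, had 14, 21.2 and 15.7 CPM in p38i tumours, against 68.7, 42 and 44.3 CPM in control tumours (log2 fold change -1.59, SE 0.26, edgeR adjusted p = 0.0164). In each of these the groups were separate, as in all 221 called genes. ETV6, a repressor of the ETS family, had 97.8, 85.5 and 102 CPM in p38i tumours, against 171, 186 and 202 CPM in control tumours (log2 fold change -0.97, SE 0.15, edgeR adjusted p = 0.0156). CYB561, an electron-transferring membrane cytochrome, had 77.4, 70.9 and 60.2 CPM in p38i tumours, against 139, 147 and 141 CPM in control tumours. ANKH, which exports ATP and pyrophosphate, had 84.9, 97.1 and 72.4 CPM in p38i tumours, against 197, 237 and 158 CPM in control tumours. In both the groups stood apart. GGT5, a gamma-glutamyltransferase that acts on leukotriene C4, had 7.84, 6.07 and 9.54 CPM in p38i tumours, against 25.8, 22.5 and 19.2 CPM in control tumours. Log2 fold changes were -1.04 for CYB561, -1.22 for ANKH and -1.51 for GGT5, with edgeR adjusted p values of 0.0156, 0.0164 and 0.0164. C19orf18 (log2 fold change -1.93) and ZCCHC24 (-0.96) were lower too, with edgeR adjusted p values of 0.0156 and 0.0164. MEIS3P1 (log2 fold change -1.27) is a pseudogene of MEIS3, so its reads may be shared.

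IFITM10, a member of the interferon-induced transmembrane family, was the single gene called among 28 of an interferon response list, with 7.16, 4.42 and 4.65 CPM in p38i tumours, against 61.6, 50.4 and 21.3 CPM in control tumours (log2 fold change -3.04, SE 0.46, edgeR adjusted p = 0.0164). MGMT, which removes alkyl groups from guanine in DNA, was the single call among 17 alkylation and base excision repair genes, with 3 to 5 counts in p38i tumours and 24 to 28 in control tumours (log2 fold change -2.92, SE 0.58, edgeR adjusted p = 0.0298). BHLHE41, a clock repressor, was the only one called of 17 circadian genes, with 45.7, 44.4 and 34.7 CPM in p38i tumours, against 115, 93.7 and 103 CPM in control tumours (log2 fold change -1.32, edgeR adjusted p = 0.0203). CTSD, the lysosomal protease cathepsin D, had 271, 213 and 201 CPM in p38i tumours, against 689, 547 and 365 CPM in control tumours (log2 fold change -1.22, SE 0.24, edgeR adjusted p = 0.0297). ATP6V0D2, a subunit of the lysosomal proton pump, was higher instead, with 12.3, 9.66 and 4.89 CPM in p38i tumours, against 2.5, 2.1 and 2.37 CPM in control tumours (log2 fold change 1.92, edgeR adjusted p = 0.0469). These were the 2 calls among 38 lysosome and autophagy genes, which had a median of -0.03.

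TSC22D1, NET1, RHOBTB3 and LOC100129940 were lower as well. TSC22D1, a leucine zipper protein induced by TGF-beta, had 337, 379 and 289.9 CPM in p38i tumours, against 680.2, 612 and 619 CPM in control tumours (log2 fold change -0.92, edgeR adjusted p = 0.0203). NET1, an exchange factor for RhoA, had 349.7, 346 and 363 CPM in p38i tumours, against 558, 656 and 682 CPM in control tumours (log2 fold change -0.84). RHOBTB3, a BTB domain protein, had 428, 377 and 366 CPM in p38i tumours, against 731, 593 and 745 CPM in control tumours (log2 fold change -0.82). In each of these the groups were separate and each group was tight. LOC100129940, with no role given here, had 717, 723 and 743 CPM in p38i tumours, against 1482, 1389.7 and 1321 CPM in control tumours (log2 fold change -0.94).

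Among the genes higher in p38i tumours were a chemokine receptor and proteins that act at the cell surface or in the matrix. CXCR4, the receptor of the chemokine CXCL12, had 209, 182 and 189.6 CPM in p38i tumours, against 66.6, 59.4 and 67.3 CPM in control tumours. Both groups were tight and far apart (log2 fold change 1.58, SE 0.26, edgeR adjusted p = 0.0164). It was the 1 gene called among 6 chemokine receptors and ligands tested. CXCL12 itself varied widely, with 1.02, 33.1 and 12 CPM in p38i tumours, against 1.25, 6.91 and 9.48 CPM in control tumours, and did not pass (edgeR adjusted p = 0.534). LOXL2, a secreted lysyl oxidase that crosslinks collagen, had 252, 223 and 225 CPM in p38i tumours, against 109, 120.1 and 134 CPM in control tumours (log2 fold change 0.94, SE 0.15, edgeR adjusted p = 0.0164). It was the only call among 19 mesenchymal genes, and VIM, the mesenchymal filament vimentin, overlapped with 5593, 5105 and 5689 CPM in p38i tumours, against 4804, 5364 and 5915 CPM in control tumours. ADTRP, a membrane hydrolase that regulates tissue factor pathway inhibitor, had 147, 195 and 205 CPM in p38i tumours, against 45.8, 34.5 and 71.8 CPM in control tumours (log2 fold change 1.84, SE 0.30, edgeR adjusted p = 0.0164). Every p38i tumour lay above every control. ADAMTS6, a secreted metalloproteinase, had 81.5, 46.1 and 75.1 CPM in p38i tumours, against 28.3, 19.8 and 29.4 CPM in control tumours, with col5 lowest in its group (log2 fold change 1.38, SE 0.24, edgeR adjusted p = 0.0165). CCDC80, a matrix protein, had 323, 304 and 439 CPM in p38i tumours, against 198, 119 and 143 CPM in control tumours (log2 fold change 1.22, SE 0.25, edgeR adjusted p = 0.0331).

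Of 17 angiogenic factors and receptors, ESM1 and TIE1 were higher and ANGPTL4 lower. ESM1, the proteoglycan endocan, had 11.2, 18.2 and 28.6 CPM in p38i tumours, against 5.41, 3.9 and 6.64 CPM in control tumours, highest in col6 (log2 fold change 1.86, SE 0.36, edgeR adjusted p = 0.0297). Without col6 its log2 fold change was 1.47 and it did not pass. TIE1, a receptor kinase known from endothelium, held 9, 21 and 29 counts in p38i tumours, against 0, 2 and 3 counts in control tumours. The fitted log2 fold change was 3.36 (SE 0.67, edgeR adjusted p = 0.0298), from control counts at or under the floor of 3 counts. Summed over 8 symbols, endothelial markers took 0.00149% to 0.00278% of counts in p38i tumours, against 0.00205% to 0.00287% in control tumours, with VWF and CLDN5 at 0 or 1 count in each. ERG, an endothelial factor, had 17, 25 and 7 counts in p38i tumours, against 4, 5 and 10 counts in control tumours, with overlap. VEGFA had 352, 168 and 137 CPM in p38i tumours, against 166, 122 and 194 CPM in control tumours and did not pass (edgeR adjusted p = 0.525).

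Of 29 genes of G2 and mitosis, 5 were higher in p38i tumours and none was lower. All 29 had a positive log2 fold change, with a median of 0.83 beside -0.00099 for all genes, and 26 had an unadjusted edgeR p under 0.05. In 13 of the 29 all p38i libraries lay above all controls, against 12.3% of all genes. KIFC1, a minus-end kinesin of the spindle, had 80.4, 98.8 and 252 CPM in p38i tumours, against 34.1, 40.2 and 56.6 CPM in control tumours. Its col6 value was far above the other p38i tumours (log2 fold change 1.71, SE 0.37, edgeR adjusted p = 0.042), and without col6 its log2 fold change was 1.03 and it did not pass. NDC80, a kinetochore protein that holds microtubules, had 80.8, 94.9 and 144 CPM in p38i tumours, against 28.3, 43.8 and 53.1 CPM in control tumours (log2 fold change 1.34, SE 0.30, edgeR adjusted p = 0.0418). The order was the same as in KIFC1, with col6 highest. KIF2C, a microtubule-depolymerising kinesin, had 74.6, 100.2 and 129.7 CPM in p38i tumours, against 27.5, 47.4 and 61.6 CPM in control tumours. BUB1, a spindle checkpoint kinase, had 31.7, 39.7 and 49.9 CPM in p38i tumours, against 11.7, 17.7 and 23.5 CPM in control tumours. SKA1, a kinetochore protein, had 12.3, 16.8 and 16.1 CPM in p38i tumours, against 4.58, 3.9 and 4.98 CPM in control tumours. Log2 fold changes were 1.14 for KIF2C, 1.18 for BUB1 and 1.74 for SKA1, with edgeR adjusted p values of 0.043, 0.0461 and 0.043. TOP2A, a topoisomerase, overlapped between groups, with 844, 1129.5 and 1644 CPM in p38i tumours, against 548, 821 and 896 CPM in control tumours (edgeR adjusted p = 0.158). DESeq2 called 9 of the 29 and limma-voom 2. Without control 2-1 edgeR called 15 of 29, and without p38i 3-3, col5, col6, control 1-1 or control 1-3 it called 0, with 11 (without col6) to 28 (without p38i 3-3) at an unadjusted p under 0.05. Over all genes, 1663 of 12831 (without col6) and 2143 of 12848 (without p38i 3-3) had an unadjusted p under 0.05. The median of the list was 0.59 without col6, the library with muscle transcripts, and 1.12 without control 2-1.

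Of 22 genes of S phase, MCM3 and MCM10, both needed to start replication forks, were higher, 21 had a positive log2 fold change and the median was 0.46. MCM3 had 139.8, 172 and 205 CPM in p38i tumours, against 89.9, 94 and 116 CPM in control tumours (log2 fold change 0.79, SE 0.18, edgeR adjusted p = 0.0433). MCM10 had 33.4, 41.9 and 47.2 CPM in p38i tumours, against 17.9, 23.4 and 26.8 CPM in control tumours (log2 fold change 0.84, SE 0.20, edgeR adjusted p = 0.0478). In both, col6 was the highest and control 2-1 the nearest control. RRM1, a subunit of ribonucleotide reductase, was separated with 382, 419.7 and 532 CPM in p38i tumours, against 255, 305 and 328 CPM in control tumours without passing (edgeR adjusted p = 0.0639). Of 11 replication-dependent histone genes, HIST1H1C and HIST1H4C were higher and the median was 0.97. HIST1H1C, a linker histone, had 151, 147 and 209.9 CPM in p38i tumours, against 81.6, 76.3 and 83.4 CPM in control tumours (log2 fold change 1.08, SE 0.21, edgeR adjusted p = 0.029). HIST1H4C had 1639, 2155 and 3059 CPM in p38i tumours, against 1063, 767 and 1116 CPM in control tumours, highest in col6 (log2 fold change 1.22, SE 0.26, edgeR adjusted p = 0.0403). Without col6 its log2 fold change was 0.96 and it did not pass. Histone genes have close copies, so their reads may be shared. DEK, a chromatin protein, had 879, 892 and 1179.7 CPM in p38i tumours, against 505, 541 and 653 CPM in control tumours (log2 fold change 0.80, SE 0.19, edgeR adjusted p = 0.0498). DESeq2 called 5 S phase and 4 histone genes, limma-voom 0 and 2. Without control 2-1 edgeR called 8 S phase and 3 histone genes, and without any 1 of the other 5 p38i or control libraries it called 0 of both lists, with 5 to 9 S phase and 4 to 6 histone genes at an unadjusted p under 0.05. None of 16 CDK inhibitors and p53 targets passed in edgeR or limma-voom and DESeq2 called 1, with 3 at an unadjusted edgeR p under 0.05.

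Of 19 heat shock chaperones, which refold or protect damaged proteins, 2 were higher and none was lower, beside 0.655% of all genes higher. HSPH1, the HSP110 that exchanges nucleotide on HSP70, had 305, 217 and 220.2 CPM in p38i tumours, against 127, 112 and 135 CPM in control tumours. The groups were well apart, with p38i 3-3 highest (log2 fold change 0.99, SE 0.16, edgeR adjusted p = 0.0164). HSPA1A, an inducible HSP70, had 309, 177 and 154 CPM in p38i tumours, against 66.6, 57.6 and 126 CPM in control tumours (log2 fold change 1.34, SE 0.31, edgeR adjusted p = 0.0469), and it is nearly identical to HSPA1B, so its reads cannot be assigned with certainty. The call of HSPA1A was fragile: it passed in 1 of the 12 fits with 1 library left out, the fit without control 2-1. Of the 19, 18 had a positive log2 fold change, and the median was 0.45. In 13 the p38i libraries lay wholly above the controls, against 12.3% of all genes. HSP90AA1, an inducible HSP90, had 4203, 3265 and 3152 CPM in p38i tumours, against 2590.3, 2797 and 2780.3 CPM in control tumours and did not pass (edgeR adjusted p = 0.291). HSPB1, a small heat shock protein, had 299, 227 and 190.1 CPM in p38i tumours, against 169, 168 and 169 CPM in control tumours and did not pass either (edgeR adjusted p = 0.285). The list's median stayed between 0.47 and 0.58 when any 1 of the 6 libraries was left out, while its edgeR calls ran from 0 (without p38i 3-3, col6 or control 1-3, with 8 to 12 at an unadjusted p under 0.05) over 1 (without col5 or control 1-1) to 4 (without control 2-1). DESeq2 called 4 and limma-voom 2. Heat shock factors bind inverted repeats, and GAANNTTC on both strands was found once in the HSPA1A window and not in the HSPH1 window, while 6.77% of RefSeq windows hold it. The HSPA1A window, chr6:31815293-31815592 on the plus strand of GRCh38.p14, is shown for that match, in capitals, 5′ to 3′.
HSPA1A: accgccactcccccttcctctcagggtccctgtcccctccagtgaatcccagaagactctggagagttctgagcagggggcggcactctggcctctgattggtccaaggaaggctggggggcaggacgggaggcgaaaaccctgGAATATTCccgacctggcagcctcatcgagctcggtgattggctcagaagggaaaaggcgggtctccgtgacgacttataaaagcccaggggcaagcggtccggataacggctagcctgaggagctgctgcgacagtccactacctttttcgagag

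In each tumour the median level of a list was taken as log2 CPM. For the BMP targets it was 3.10, 3.08 and 2.98 in p38i tumours, against 4.30, 4.57 and 4.47 in control tumours. The other inhibitor groups, not tested against control here, lay at 3.45 to 3.98 (combination) and 2.96 to 3.92 (EZH2i), below all controls. For the heat shock chaperones it was 7.42, 7.48 and 7.38 in p38i tumours, against 6.75, 6.82 and 7.08 in control tumours. Combination tumours lay at 7.12 to 7.42 and EZH2i tumours at 7.29 to 7.53, above all controls. For the glucocorticoid-responsive list, combination tumours lay at 6.05 to 6.32 and EZH2i tumours at 5.69 to 6.43, below all controls (6.96 to 7.71). For the S phase list they lay at 5.08 to 5.46 and 5.11 to 5.35, above all controls (4.33 to 4.96). In the G2/M and ribosomal lists EZH2i tumours overlapped the controls and combination tumours did not. The plot of list medians shows these 4 further lists.

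**Figure D4:**
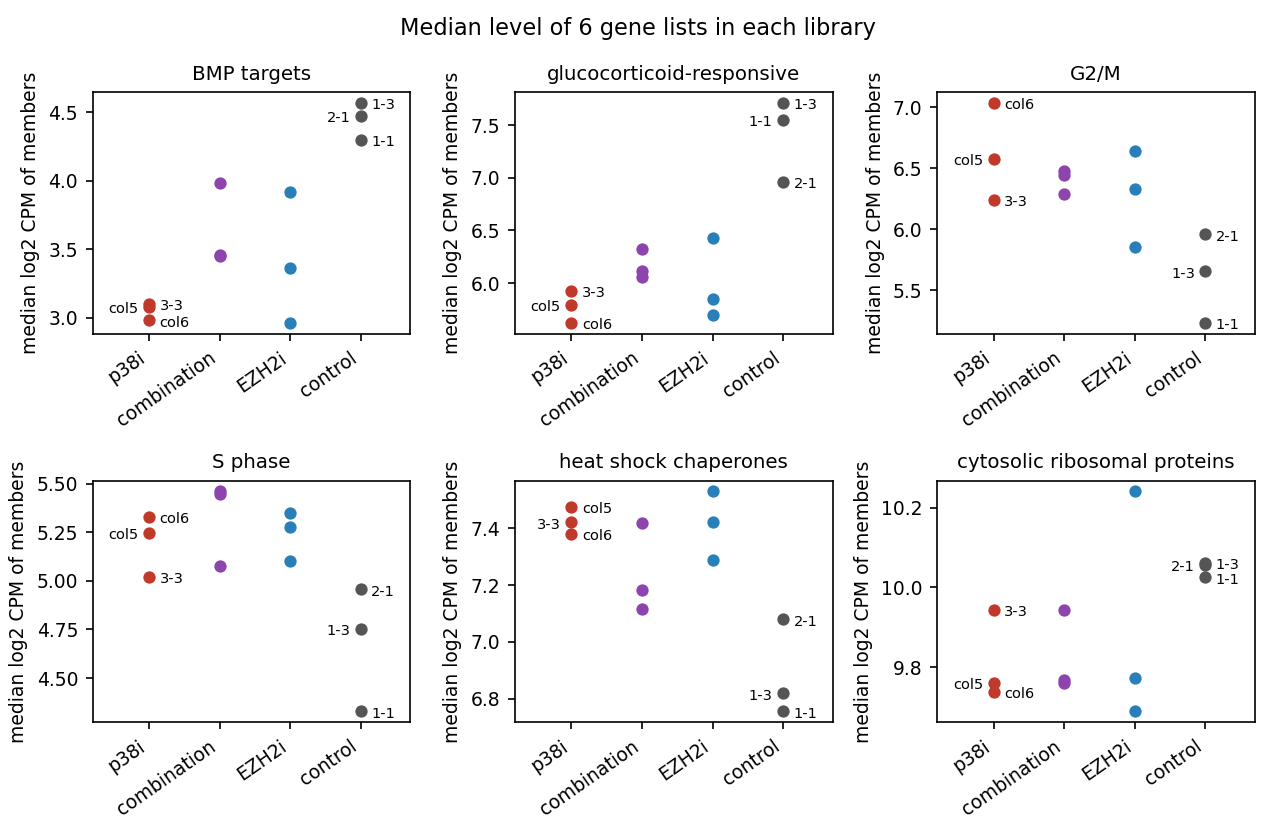
Points are the median log2 CPM over the members of 6 gene lists in each tumour of the p38i, combination, EZH2i and control groups, with p38i and control tumours labelled. In all 6 panels the 3 p38i tumours lie wholly on one side of the 3 control tumours, and control 2-1 is the control nearest to them in the glucocorticoid-responsive, G2/M, S phase and heat shock panels.

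The remaining higher genes named here have varied known roles. ODC1, the rate-limiting enzyme of polyamine synthesis, had 215, 195 and 216 CPM in p38i tumours, against 74.9, 73 and 116 CPM in control tumours. Control 2-1 was the nearest control (log2 fold change 1.24, SE 0.23, edgeR adjusted p = 0.0203). CTH, cystathionine gamma-lyase of cysteine synthesis, had 18.7, 16 and 13.9 CPM in p38i tumours, against 3.33, 3.9 and 6.87 CPM in control tumours (log2 fold change 1.73, SE 0.36, edgeR adjusted p = 0.0339), the 1 call among 18 amino acid stress genes. CSRP2, a LIM domain protein, had 64.4, 45 and 31.1 CPM in p38i tumours, against 18.3, 12.3 and 17.8 CPM in control tumours, highest in p38i 3-3 (log2 fold change 1.53, SE 0.27, edgeR adjusted p = 0.0175). SCN9A, a voltage-gated sodium channel, had 46.7, 31.5 and 40.4 CPM in p38i tumours, against 20.8, 17.1 and 16.6 CPM in control tumours (log2 fold change 1.13, SE 0.20, edgeR adjusted p = 0.0184). ILF2, a subunit of a double-stranded RNA binding complex, had 119, 115 and 137 CPM in p38i tumours, against 72.8, 72.7 and 76.6 CPM in control tumours (log2 fold change 0.74). PCBP1, a poly(C) RNA binding protein, had 581, 658 and 693 CPM in p38i tumours, against 314, 322 and 487 CPM in control tumours (log2 fold change 0.78). SNRPG, a core protein of spliceosomal particles, had 271, 305 and 329.6 CPM in p38i tumours, against 156, 177 and 216 CPM in control tumours (log2 fold change 0.72). PCBP1 and SNRPG have close copies in the genome, so their reads may be shared. ZNF521, a zinc finger cofactor (1.33), ABHD17C, a depalmitoylase (1.21), GFOD1 (1.47) and GPATCH11 (0.74) were higher with edgeR adjusted p values from 0.0265 to 0.0298. GATA6, a transcription factor reported as repressed by EZH2 in other systems, had 6.14, 6.35 and 7.34 CPM in p38i tumours, against 1.67, 1.5 and 2.61 CPM in control tumours (log2 fold change 1.73, SE 0.36, edgeR adjusted p = 0.0331). In that list of 18, GATA6 was higher and TIMP3 lower.

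The p38 pathway's own genes did not pass. For scale, 2300 of all 12514 genes had an unadjusted edgeR p under 0.05, and DESeq2 called 632. None of 13 p38 kinases and activators was called by edgeR or limma-voom and DESeq2 called 1, with 2 at an unadjusted edgeR p under 0.05 and a median of 0.04. MAPK13, p38 delta, had 155, 148 and 161 CPM in p38i tumours, against 103, 80.8 and 103 CPM in control tumours, all p38i above all controls, and did not pass, with an edgeR adjusted p of 0.0777. Of 19 downstream kinases and effectors edgeR and limma-voom called none and DESeq2 1, with 4 at an unadjusted edgeR p under 0.05. SRF, the serum response factor, is in none of the lists and was named for its rank in p38i against EZH2i. It had 180.0, 189 and 325 CPM in p38i tumours, against 144, 122 and 139 CPM in control tumours. Its log2 fold change was 0.78 (edgeR adjusted p = 0.0772), or 0.46 without col6. Of 14 genes of MAP kinase feedback edgeR and limma-voom called none and DESeq2 1, with 4 at an unadjusted edgeR p under 0.05. DUSP4, a phosphatase of MAP kinases, was separated with 973, 1021 and 1379 CPM in p38i tumours, against 2082, 2150.2 and 1876 CPM in control tumours (log2 fold change -0.86, SE 0.22, edgeR adjusted p = 0.0667), while DUSP6, specific for ERK, overlapped with 729, 564 and 932 CPM in p38i tumours, against 715, 857 and 1677 CPM in control tumours. Of 11 cytokine and AU-rich-element transcripts, 10 had a positive log2 fold change, edgeR and limma-voom called none and DESeq2 1, and 3 had an unadjusted edgeR p under 0.05. IL11, a cytokine of the IL-6 family, had 20.5, 12.7 and 52.6 CPM in p38i tumours, against 19.1, 9.01 and 5.93 CPM in control tumours, highest in col6 and with overlap (edgeR adjusted p = 0.157). Of 16 immediate early genes edgeR and limma-voom called none and DESeq2 1, and 8 had an unadjusted edgeR p under 0.05, all higher, with a median of 0.50. JUN, a subunit of AP-1, had 419, 315 and 625 CPM in p38i tumours, against 309, 349 and 477 CPM in control tumours and did not pass (edgeR adjusted p = 0.579).

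Lists with many members of one sign but no edgeR call included cholesterol synthesis, ribosomal proteins and epithelial genes. The counts below are to be read beside those over all 12514 genes. There 2300 had an unadjusted edgeR p under 0.05, DESeq2 called 632 and limma-voom 165, so several lists lay near the share of all genes. Of 21 cholesterol genes, 19 were positive, with a median of 0.54, 8 at an unadjusted edgeR p under 0.05, 3 called by DESeq2 and 0 by limma-voom. Of 28 cytosolic ribosomal proteins, 25 were negative with a median of -0.19 (5 at an unadjusted edgeR p under 0.05, 2 called by DESeq2, 0 by limma-voom), RPS4X being furthest with 1833, 1696 and 1196 CPM in p38i tumours, against 3324, 3526 and 2952 CPM in control tumours and an edgeR adjusted p of 0.0656. Among 19 genes of epithelial identity the log2 fold change was negative in 16 and had a median of -0.50 (3 at an unadjusted edgeR p under 0.05, 0 called by DESeq2 or limma-voom). MUC1 showed the spread of controls there, with 13.3, 3.86 and 3.91 CPM in p38i tumours, against 60.8, 20.7 and 6.64 CPM in control tumours. Of 12 PRC2 subunits, 10 were positive with a median of 0.24 (3 at an unadjusted edgeR p under 0.05, 0 called by DESeq2 or limma-voom). NF-kB targets (16 tested, 3 at an unadjusted edgeR p under 0.05), Notch genes (10 and 2), YAP-TEAD targets (13 and 4) and the nuclear-encoded respiratory chain (27 and 1) had 0 calls in edgeR, DESeq2 and limma-voom. Antigen presentation (18 tested, 7 at an unadjusted edgeR p under 0.05), TGF-beta pathway (19 and 5), NRF2 targets (18 and 5), apoptosis (20 and 6) and housekeeping genes (15 and 4) had 0 calls in edgeR and limma-voom and 2 each in DESeq2. Nuclear long non-coding RNAs (6 and 2) had 0 in edgeR and limma-voom and 1 in DESeq2.

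The same inhibitor could be followed in tumours that share no library with this comparison, by setting the combination against EZH2i. There edgeR called 0 of 12514 genes (0%), with 391 at an unadjusted p under 0.05, against 2300 for p38i over control. DESeq2 called 1 gene and limma-voom 0. Of the 221 genes, 56 (25.3%) had the same sign in both comparisons, beside 48.7% of all genes. The share was 25.6% for the 82 higher genes and 25.2% for the 139 lower genes, and their median log2 fold changes over EZH2i were -0.17 and 0.14. These shares moved with single tumours: without EZH2i 5-4 the share of these 221 genes with the same sign was 47.1%, beside 54.6% of all genes in that fit. Without EZH2i 5-3 it was 16.7% (all genes 41.8%), and without combination 8-1 it was 38.5% (all genes 52.1%). Across genes the log2 fold changes of both comparisons had a Pearson correlation of -0.16 and a Spearman correlation of -0.08; genes are not independent replicates.

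**Figure D5:**
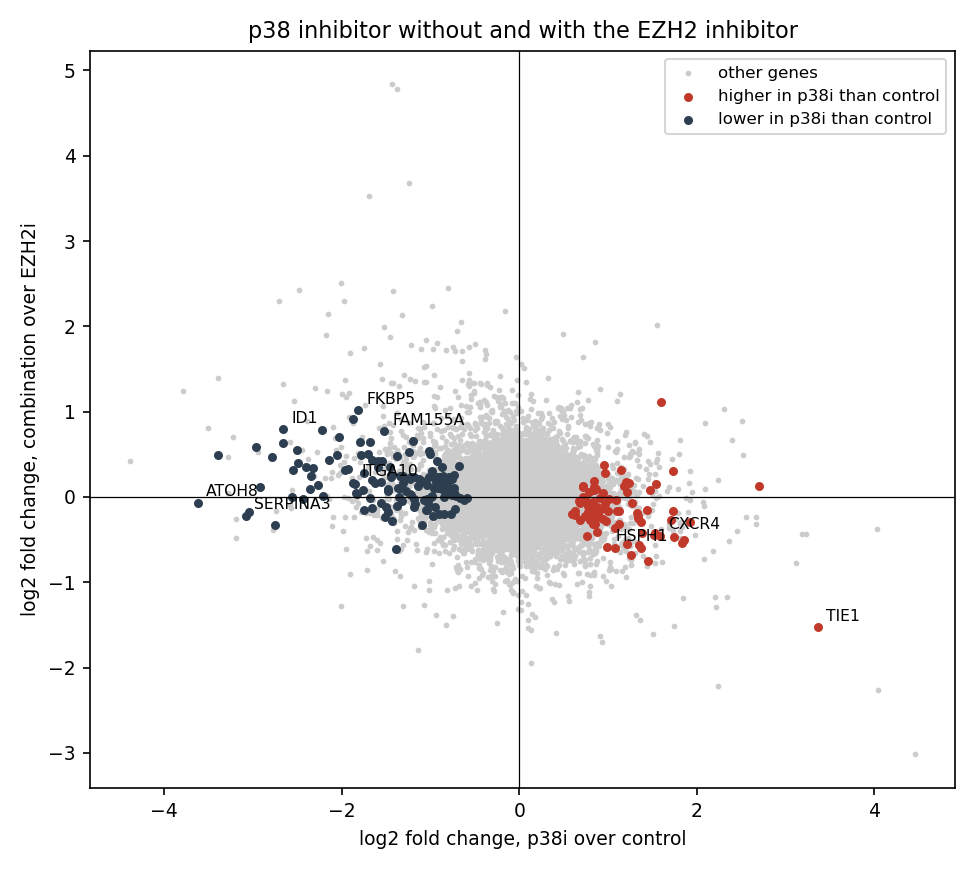
Each point is a gene, with the log2 fold change of p38i over control tumours on the horizontal axis and that of combination over EZH2i tumours, which are other libraries, on the vertical axis. The called genes lie left and right of 0 by their choice, and on the vertical axis their medians are -0.17 for the higher and 0.14 for the lower genes.

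ITGA10 had 85, 115 and 83.2 CPM in combination tumours, against 83.3, 68.9 and 102 CPM in EZH2i tumours (log2 fold change 0.17, edgeR adjusted p = 0.991). ID1 had 82.9, 172 and 70.3 CPM in combination tumours, against 82.9, 22.4 and 86 CPM in EZH2i tumours, with EZH2i 5-4 lowest of the 6 (log2 fold change 0.79, edgeR adjusted p = 0.991). CXCR4 had 102, 108 and 234 CPM in combination tumours, against 181, 236 and 188 CPM in EZH2i tumours, where combination 9-2 stood with the EZH2i tumours and the other combination tumours lay below them (log2 fold change -0.45, edgeR adjusted p = 0.991). The BMP target list had a median of 0.02 over EZH2i, the G2/M list -0.01, the heat shock list -0.33 and the glucocorticoid-responsive list 0.27, with no member called in edgeR.

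The difference between both effects of the p38 inhibitor, with and without EZH2i, was tested as an interaction. It passed for 3 genes, 0.024% of those tested, with 1644 at an unadjusted p under 0.05. They were ITGA10 (log2 interaction 2.04, SE 0.26, edgeR adjusted p = 0.00815), FAM155A (2.30, SE 0.28, edgeR adjusted p = 0.00815) and HSPH1 (-1.58, SE 0.22, edgeR adjusted p = 0.0142). All 3 were also called in p38i over control, where their sign was opposite. The interaction contains that comparison with its sign reversed, so the opposite sign follows largely from the contrast and is not a separate result. FAM155A had 24, 27.5 and 21.3 CPM in combination tumours, against 15.4, 11.9 and 15.7 CPM in EZH2i tumours, without overlap. HSPH1 had 195, 211 and 233 CPM in combination tumours, against 322, 326 and 312 CPM in EZH2i tumours, also without overlap. The count was 8 without p38i col6, 42 without EZH2i 5-3, 7 without control 1-1 and 12 without control 2-1, and DESeq2 called 226. ETV6 and CMTM8 came next (edgeR adjusted p = 0.0671 and 0.0635). CMTM8, a chemokine-like membrane protein, had 40.2, 29.3 and 32.1 CPM in p38i tumours, against 71.6, 73.3 and 59.3 CPM in control tumours.

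Set directly against each other, p38i and EZH2i tumours differed in 0 genes (0%) in edgeR, with 426 at an unadjusted p under 0.05. DESeq2 called 1 gene and limma-voom 0. SERPINA3 came nearest, with 1.66 to 2.73 CPM in p38i tumours and 22.8, 10.7 and 7.86 CPM in EZH2i tumours, and its log2 fold change was -2.76 (SE 0.44, edgeR adjusted p = 0.177). The next 4 genes were SRF (0.78), ARMC10 (-0.81), LOC100505812 (1.36) and TRIM14 (0.78), each with an edgeR adjusted p of at least 0.998. For ITGA10, whose p38i tumours lay at 69.8 to 79.4 CPM and EZH2i tumours at 68.9 to 102 CPM, the log2 fold change was -0.21 (SE 0.19, edgeR adjusted p = 0.998). A missed threshold in 3 against 3 tumours does not show that the levels were alike.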

How the data were processed

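RNA of 12 MDA-MB-231 xenograft tumours, 3 in each of 4 groups, was sequenced. The authors deposited raw counts per gene symbol, 1 column per library, and these count values are not normalized. Per the submitters' processing notes, Trim Galore 0.5.0 and STAR 2.6.0 were used with hg19. The counting program, annotation, strand setting and the handling of mouse reads are not given in the sources used here, so mouse reads that align to human genes may be in the counts, and reads of antisense or overlapping genes may not be separable. The labels name both a SMARTer mRNA and a QuantSeq kit, so counts are not compared between genes. Library totals ran from 2208771 (EZH2i 6-1) to 4467942 (combination 9-1), and a floor of 3 counts equals 0.671 to 1.36 CPM. Intervals and floors cover counting error only.

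Groups came from the labels. Columns 5 and 6 were used as p38i libraries without a tumour number, column 6 by elimination. The 3 lines without a symbol, which hold 0 counts, were left out.

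Genes were kept with filterByExpr, scaled with TMM and fitted over all 12 libraries with 1 term per group in edgeR 4.0.16 (limma 3.58.1, R 4.3.3), using the robust quasi-likelihood F test and Benjamini-Hochberg adjustment over all 12514 genes at 0.05. All tests were two-sided. The SE is the log2 fold change divided by the square root of F. CPM uses the scaled library size. The contrasts were p38i against control, combination against EZH2i, p38i against EZH2i, and the difference of the first 2 (interaction). Alternatives were other scalings and filters, DESeq2 1.42.0, limma-voom, the robust option off, 6 libraries only, p38i 3-3 as the only p38i library, and each library left out. Scripts were tested on simulated data.

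Genes named were the 15 per direction with the smallest adjusted p, a mean of at least 5 CPM and no overlap, the 5 called per direction with the highest CPM, called members of 42 gene lists, leading or high members of some lists, all BMP pathway genes, the 5 with the smallest adjusted p against EZH2i and in the interaction, and EZH2 and MAPK14; ERG, DCN, TIMP2, VEGFA and other uncalled genes beside them are there as context. The members and lists were chosen with earlier results of these data known. Promoter windows of 300 bases were taken from RefSeq, GRCh38.p14, by symbol, for 9316 of 12514 genes; hg19 coordinates were not used.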

Additional observations from a re-analysis of the deposited data

Results flagged for a closer look

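The change with the p38 inhibitor differed between tumours with and without the EZH2 inhibitor in 3 genes, by the interaction in edgeR. For FAM155A the log2 fold change with EZH2i minus that without was 2.30 (edgeR adjusted p = 0.00815), from 0.77 for combination over EZH2i and -1.52 for p38i over control, with 3 of 3 combination tumours above all EZH2i tumours. For ITGA10 it was 2.04 (edgeR adjusted p = 0.00815), from 0.17 and -1.87 in the same order, with 3 of 3 p38i tumours below all control tumours. For HSPH1 it was -1.58 (edgeR adjusted p = 0.0142), from -0.59 and 0.99, with 3 of 3 combination tumours below all EZH2i tumours.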

How the results depend on the processing

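No paired analysis was possible because the groups compared share no tumour numbers in the labels. The number of genes past the threshold in p38i over control lay between 204 and 242 under the other scalings, a mean of at least 5 CPM, the robust option off and the fit of 6 libraries alone. The genes were not all the same: of the 221, 158 were kept in the fit of 6 libraries and 184 with library totals alone. With the robust option off 198 were kept, with a mean of at least 5 CPM 212 and with DESeq2 size factors 220. DESeq2 called 632 genes, 280 higher and 352 lower, 1 for combination over EZH2i, 1 for p38i over EZH2i and 226 in the interaction, and its share of called genes with the same sign in combination over EZH2i was 32.6%, against 18.8% in limma-voom. Without a filter on low counts 127 genes were higher, 1 passed in p38i over EZH2i and 70 passed in the interaction. With p38i 3-3 as the only p38i library, whose spread is then assumed to be like that of the other groups, 0 genes passed in edgeR, 0 higher and 0 lower, with 846 at an unadjusted p under 0.05. With 1 library left out at a time, the number called ran from 2 to 568, the number higher from 0 to 249, the number lower from 1 to 319, the interaction from 2 to 42 and the share with the same sign from 0% to 58.1%, while combination over EZH2i and p38i over EZH2i had 0 in each. Shares of calls from fits with under 10 calls (without p38i 3-3, col5, col6 or control 1-3) rest on those few genes.

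Of 104 named genes under 21 settings, 1644 values kept direction and side of the threshold, 503 kept direction but lost it, 10 gained it and 14 reversed, none of them called in edgeR. With p38i 3-3 alone SMURF1 was at 0.16 and CHRDL1 at -0.91 on the log2 scale. With 1 library left out at a time, log2 fold changes of the genes that reversed took the opposite sign without p38i 3-3 or control 1-1 (ACVR1), without col6 (SMURF1, TRIM14, CHRDL1), without control 1-1 (BMP4, SMAD7, INHBB, BMPR2, BMP1), without control 1-3 (BMPR1B) or without control 2-1 (ACVR2B). Their ranges were SMURF1 from -0.19 to 0.052, CHRDL1 from -0.41 to 0.72, ACVR1 from -0.16 to 0.81, TRIM14 from -0.057 to 0.27 and BMP4 from -0.61 to 0.034. The others were SMAD7 from -0.28 to 0.18, INHBB from -1.15 to 0.038, BMPR2 from -0.19 to 0.037, BMP1 from -0.51 to 0.0059, BMPR1B from -1.72 to 0.10 and ACVR2B from -0.014 to 0.14. The cause was not tested. Genes near the floor of 3 counts, such as MGMT, SERPINA3 and TIE1, are limited by depth.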
